A study of Mus musculus with 8 samples.

Results

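The enzymes and carriers that burn fatty acids and ketone bodies were examined as a group of 39 genes in newborn mouse skeletal muscle. They were taken by gene symbol from a table of 23336 gene rows, all 39 symbols were found, and all 39 were among the 15241 genes that passed the filter on low counts. Total RNA had been sequenced from 4 ΔDMR1-U2 and 4 wild-type samples, all of skeletal muscle from female C57BL/6 mice at postnatal day 2. ΔDMR1-U2 names a deletion at the imprinted growth factor locus Igf2, and the series concerns transcripts of Igf2as, antisense to that gene. The sources used here do not give the parent that transmitted the deletion, the litters, or whether samples came from separate animals or pools. The p-values therefore measure the spread between these samples, which may be technical.

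A fatty acid is first joined to coenzyme A by an acyl-CoA synthetase. The carnitine shuttle then carries the acyl group across the inner mitochondrial membrane, at a rate set by carnitine palmitoyltransferase 1, which malonyl-CoA inhibits. Inside, a repeated cycle of dehydrogenation, hydration, dehydrogenation and thiolysis releases acetyl-CoA, while peroxisomes shorten very long and branched chains. Muscle also takes up ketone bodies made by the liver and converts them back to acetyl-CoA, a fuel of some weight in suckling animals, whose milk is rich in fat.

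Of the 39 genes, 1 rose and 1 fell in ΔDMR1-U2 muscle. Mlycd, malonyl-CoA decarboxylase, which removes the malonyl-CoA that holds back the carnitine shuttle, rose. Oxct1, the CoA transferase that commits ketone bodies to oxidation in tissues other than liver, fell. Across all 15241 genes, 0.512% were called higher and 0.617% lower by the edgeR quasi-likelihood test at a Benjamini-Hochberg adjusted p under 0.05. Counts of 1 and 1 of 39 rest on too few genes to be set above those shares.

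Differences were mostly small and mostly positive. The log2 fold change of ΔDMR1-U2 over wild-type was above 0 for 27 genes and below 0 for 12, with a median of 0.17, against -0.0010 over all genes tested. Before adjustment, 14 genes were higher and 2 lower at p under 0.05 (edgeR), where 10.4% and 10.9% of all genes were. The 4 ΔDMR1-U2 libraries lay wholly above the 4 wild-type libraries for 6 genes, Cpt1a, Mlycd, Acadl, Echs1, Decr1 and Eci2, against 6.4% of all genes. They lay wholly below for 1, Oxct1, against 6.38%. Without ΔDMR1-U2 library 1B, which is described next, the counts before adjustment were 10 higher and 3 lower, the median was 0.12 and none of the 39 was called. Without ΔDMR1-U2 library 3 they were 10 higher and 4 lower, the median was 0.11 and again none was called. Leaving out any 1 wild-type library also left none of the 39 called. DESeq2, run on the same counts, called 4 of the 39 (Cpt1a, Mlycd, Eci2 and Oxct1), where it called 6.15% of 15133 genes. By step, the median log2 fold change was 0.38 for the carnitine shuttle, 0.39 for the pair of uncoupling proteins, 0.26 for peroxisomal enzymes and 0.13 for the mitochondrial cycle. It was 0.0025 for activation, -0.08 for electron transfer and -0.12 for ketone use, and differences between steps were not tested. The shuttle set counts Mlycd, a control gene, and Cpt1b, whose counts are uncertain. These had the highest log2 fold changes of that set, at 0.49 and 0.54.

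**Figure D1:**
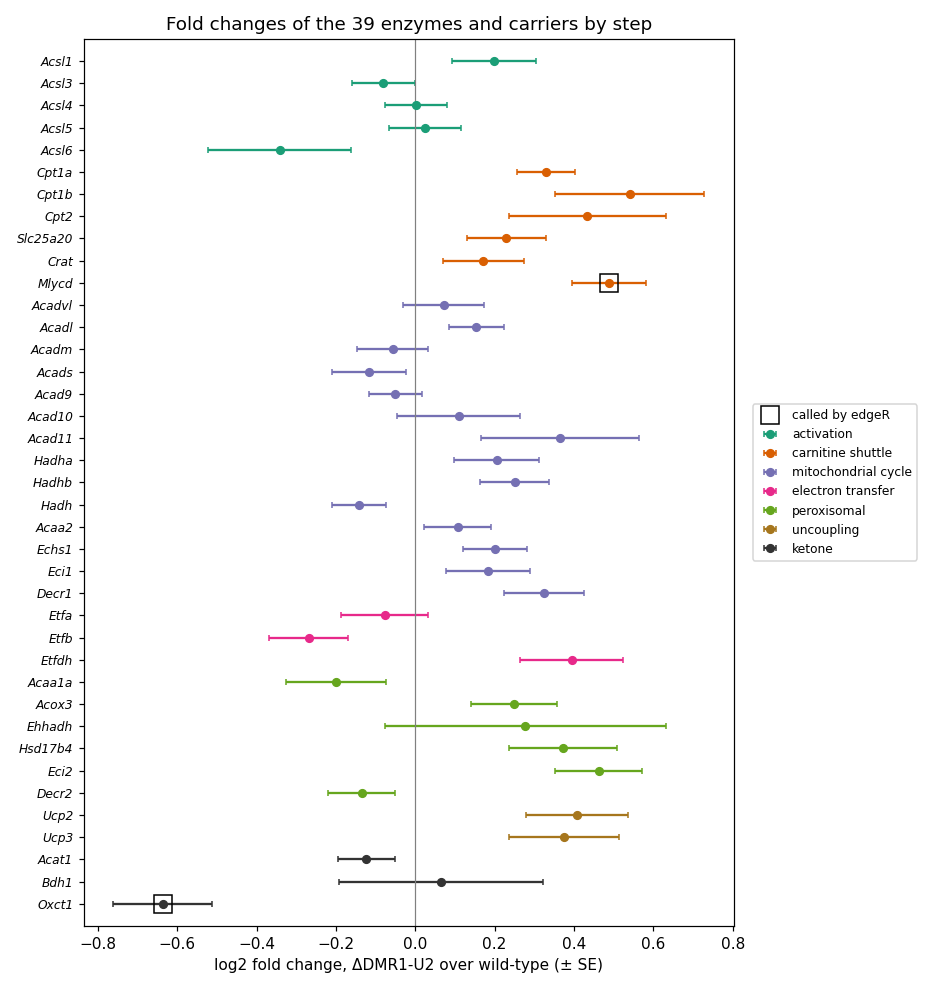
Log2 fold change of ΔDMR1-U2 over wild-type (x axis, ± SE from the edgeR fit, 4 libraries per group) for each of the 39 genes (y axis), coloured by step of the pathway, with squares on the 2 called genes. All 6 genes of the carnitine shuttle and its control lie above 0, at 0.17 to 0.54, the highest being Cpt1b, whose counts are low and uncertain. Oxct1 lies furthest below, at -0.64.

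Total counts per library ran from 16781493 to 20060129 in ΔDMR1-U2 and from 16084413 to 26913636 in wild-type. Igf2as, at the deleted locus, was at 5.55 to 6.18 CPM (counts per 1000000 reads on scaled library sizes) in ΔDMR1-U2 and 54.4 to 72.2 CPM in wild-type. The 12 skeletal muscle markers were all tested, with summed levels of 163658 to 183827 CPM in ΔDMR1-U2, against 179953 to 211654 CPM in wild-type, while the 7 liver markers summed to at most 3.65 CPM in any library. ΔDMR1-U2 libraries 1A and 1B stood apart. Library 1A, labelled female, held 2.50 CPM of Xist, which coats the silenced X in females, against 1270 to 1895 CPM in the other 7. Its counts of the Y-linked genes Ddx3y, Uty, Kdm5d and Eif2s3y were 3, 0, 0 and 0, and none of the 8 libraries held over 6 of any. Library 1B held 647 CPM over 10 white adipocyte markers, against 252 to 293 CPM in the other ΔDMR1-U2 libraries and 195 to 265 CPM in wild-type. The 8 of these markers that were tested had a median log2 fold change of 0.73, or -0.16 without 1B, and edgeR called none of them with all libraries. Their members differed, since Fabp4 (199 to 436 CPM in ΔDMR1-U2, against 150 to 180 CPM in wild-type) and Aqp7 (11.7 to 30.7 CPM against 7.98 to 11.3 CPM) were higher in all 4 ΔDMR1-U2 libraries. Without 1B their log2 fold changes were 0.39 (edgeR adjusted p = 0.0470) and 0.79 (edgeR adjusted p = 0.0641), and DESeq2 called Aqp7 with all libraries. In bulk tissue, fewer cells of a type and less RNA per cell cannot be told apart. Log2 fold changes that moved by over 1.5 times without library 1B are given both ways, apart from values near 0.

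Activation came first, and here the groups overlapped in all 5 genes. Acsl1, the main long-chain acyl-CoA synthetase of muscle and fat, had 262, 380, 288 and 304 CPM in ΔDMR1-U2 libraries 1A, 1B, 2 and 3, against 268, 248, 285 and 274 CPM in wild-type libraries of the same names. Libraries 1B, 2 and 3 were above the wild-type maximum, 1B by far the most, and the log2 fold change of 0.20 became 0.083 without it. The level of Acsl3, a synthetase of the endoplasmic reticulum and lipid droplets, was 97.1 ± 7.33 CPM in ΔDMR1-U2, against 102.7 ± 8.76 CPM in wild-type (mean ± SD over 4 libraries, as in all values of this form). Acsl4, which prefers arachidonic acid, was at 70.9 ± 3.96 CPM against 70.7 ± 6.91 CPM, and Acsl5 was at 24.1 ± 2.05 CPM against 23.6 ± 2.08 CPM. Acsl6, best known from brain, was at 2.48 ± 0.430 CPM in ΔDMR1-U2, against 3.15 ± 0.562 CPM in wild-type. The median log2 fold change of the 5 was 0.0025, close to that of all genes.

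The carnitine shuttle and its control held 1 called gene, and all 6 genes had positive log2 fold changes, with a median of 0.38. Mlycd had 66.3, 84.8, 66.8 and 85.3 CPM in ΔDMR1-U2 libraries 1A, 1B, 2 and 3, against 55.4, 52.3, 52.9 and 55.7 CPM in wild-type. Every ΔDMR1-U2 library was above every wild-type library, and 1B and 3 were the highest. The rise was 0.49 ± 0.09 (SE) on the log2 scale (edgeR adjusted p = 0.0411), and in the authors' deposited table, whose ratios run wild-type over ΔDMR1-U2, the adjusted p is 0.0125. The increase stayed between 0.43 and 0.55 when any 1 library was left out, but was called in only 2 of those 8 fits, without ΔDMR1-U2 library 1A or 2.

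Cpt1a encodes the carnitine palmitoyltransferase 1 form that is widespread outside muscle. Its levels were 95.2, 116, 113 and 108 CPM in ΔDMR1-U2, against 81.6, 82.8, 87.4 and 91.9 CPM in wild-type, with no overlap. The log2 fold change of 0.33 (standard error 0.07) missed the threshold in edgeR (adjusted p = 0.0575) and passed it in DESeq2 (adjusted p = 0.00578). In the authors' deposited table the adjusted p of Cpt1a is 0.178. Cpt1b, the muscle form, had 54, 75, 52 and 70 counts in ΔDMR1-U2 and 41, 51, 49 and 66 counts in wild-type. That is a level of 1.15 ± 0.183 CPM per kilobase of transcript in ΔDMR1-U2 and 0.799 ± 0.169 in wild-type, far under the 25.0 ± 2.14 and 19.9 ± 1.09 of Cpt1a. Of the annotated exon bases of Cpt1b, 81.4% also belong to Gm44502, a gene model on the same strand that joins Cpt1b to its neighbour. No row analysed here bears the symbol Gm44502, and other names for it were not searched. Chkb, that neighbour, held 2 to 6 counts per library. The sources used here do not say how reads in shared exons were counted, so the level of Cpt1b cannot be read as that of the muscle form. Its log2 fold change of 0.54 (adjusted p = 0.147, edgeR), the highest of the 6 shuttle genes, carries the same doubt and enters their median.

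The remaining shuttle genes divided the ΔDMR1-U2 libraries. Cpt2, which re-forms acyl-CoA inside the mitochondrion, had 67.0 and 71.9 CPM in ΔDMR1-U2 libraries 1B and 3 but 44.5 and 34.3 CPM in 1A and 2, against 36.0 to 44.1 CPM in wild-type. Slc25a20, the carnitine-acylcarnitine carrier, was likewise highest in those libraries, at 85.1 and 81.8 CPM in 1B and 3, 65.6 and 69.0 CPM in 1A and 2, and 57.0 to 70.9 CPM in wild-type. Crat, carnitine acetyltransferase, which exports acetyl groups, was at 260 ± 33.1 CPM in ΔDMR1-U2, against 231 ± 24.8 CPM in wild-type. Their log2 fold changes were 0.43 for Cpt2, 0.23 for Slc25a20 and 0.17 for Crat, and none was called (adjusted p = 0.236, 0.217 and 0.355, edgeR).

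**Figure D2:**
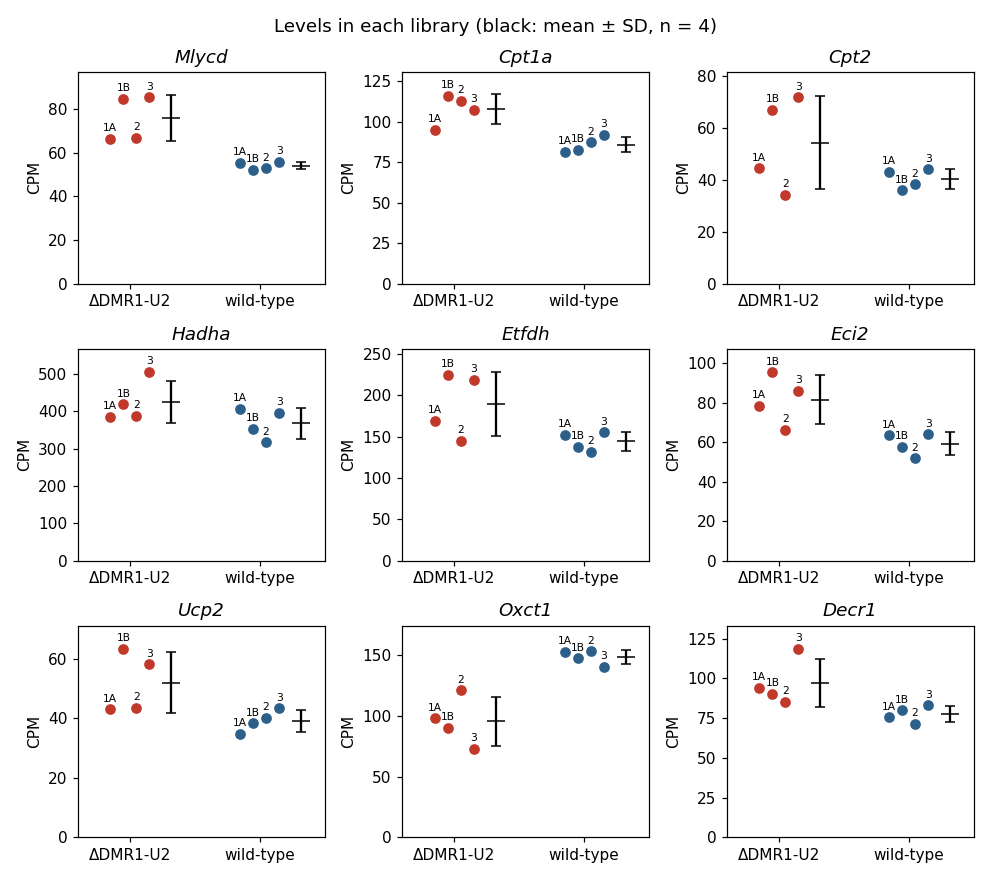
Level in each library in CPM (y axis, from 0) for 9 genes, with ΔDMR1-U2 libraries left and wild-type libraries right, labelled by library, and the mean ± SD in black. Mlycd, Cpt1a, Eci2 and Decr1 lie wholly above wild-type, Oxct1 lies wholly below, and Cpt2, Etfdh and Ucp2 are high in ΔDMR1-U2 libraries 1B and 3.

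The mitochondrial cycle held 14 genes, none of them called, with 10 positive log2 fold changes and a median of 0.13. Among the acyl-CoA dehydrogenases, which start each turn, Acadl for long chains had 250, 244, 235 and 281 CPM in ΔDMR1-U2, against 234, 225, 217 and 231 CPM in wild-type. The groups did not overlap, though ΔDMR1-U2 library 2 exceeded wild-type library 1A by under 1 CPM, and the log2 fold change was 0.15 (adjusted p = 0.230, edgeR). The other dehydrogenases overlapped between groups. Acadvl, for very long chains, was at 213 ± 26.4 CPM against 203 ± 23.2 CPM, Acadm, for medium chains, at 167 ± 16.3 CPM against 174 ± 17.2 CPM, and Acads, for short chains, at 42.0 ± 3.16 CPM against 45.7 ± 5.54 CPM. Opposite-strand exons of Dvl2 cover 42.9% of the exon bases of Acadvl. Acad9, also an assembly factor of respiratory complex I, was at 34.7 ± 1.37 CPM in ΔDMR1-U2, against 35.9 ± 1.45 CPM in wild-type. The less studied Acad10 and Acad11 had log2 fold changes of 0.11 and 0.36. Acad11, the largest of the 14, was grouped here with the other dehydrogenases, and the place of its enzyme in the cell was not tested. That of Acad10 was 0.22 without ΔDMR1-U2 library 1A, and that of Acad11 was 0.12 without ΔDMR1-U2 library 1B, where it reached 21.0 CPM. Acad10 has a close paralog, Acad12, as the peroxisomal Acaa1a has in Acaa1b, so their counts are uncertain where reads could be split.

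Hadha and Hadhb encode the alpha and beta subunits of the trifunctional protein, which carries out the later reactions on long chains. Hadha was at 385, 418, 388 and 506 CPM in ΔDMR1-U2, against 406, 353, 317 and 396 CPM in wild-type. Hadhb was at 95.7, 111, 97.6 and 115 CPM in ΔDMR1-U2, against 94.3, 85.1, 77.6 and 95.7 CPM in wild-type. Both overlapped between groups, with ΔDMR1-U2 library 3 the highest of the 8, and the log2 fold changes were 0.21 for Hadha and 0.25 for Hadhb (adjusted p = 0.292 and 0.146, edgeR). The 2 genes lie head to head on chromosome 5 of mm10, and the 85 bases between their gene models, at chr5:30155163-30155247 on the plus strand, are shown because any sequence there is next to both starts. Capitals mark matches to GGGCGG, the GC box bound by Sp1-type factors, read on either strand.

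Hadha-Hadhb: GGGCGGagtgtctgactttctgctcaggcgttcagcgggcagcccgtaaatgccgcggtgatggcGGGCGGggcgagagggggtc

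The gap holds 2 GC boxes and no CCAAT. GC boxes are common, and 35.7% of 32851 mouse promoter windows of 300 bases, from RefSeq on build GRCm38.p6, hold at least 1.

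Among enzymes of short and unsaturated chains the signs differed. Hadh, the short-chain hydroxyacyl-CoA dehydrogenase, was at 113 ± 8.96 CPM in ΔDMR1-U2, against 125 ± 4.79 CPM in wild-type, a log2 fold change of -0.14. Echs1, the short-chain enoyl-CoA hydratase, had 57.1, 64.3, 50.1 and 52.3 CPM in ΔDMR1-U2, against 49.5, 49.4, 46.6 and 49.2 CPM in wild-type. Decr1, the dienoyl-CoA reductase that polyunsaturated acids need, had 94.0, 90.2, 85.1 and 119 CPM in ΔDMR1-U2, against 75.5, 79.9, 71.3 and 83.1 CPM in wild-type. For both genes all ΔDMR1-U2 libraries were above all wild-type ones, the log2 fold changes were 0.20 and 0.33, and neither was called (adjusted p = 0.193 and 0.115, edgeR). That of Echs1 was 0.13 without library 1B. Eci1, an enoyl-CoA isomerase, and Acaa2, a thiolase of the mitochondrial cycle, overlapped between groups, with log2 fold changes of 0.18 and 0.11.

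Electron transfer from the dehydrogenases split by gene. The flavoprotein subunits Etfa and Etfb had log2 fold changes of -0.08 and -0.27, and Etfdh, which passes the electrons on to ubiquinone, had 0.39. Etfdh was at 169, 225, 145 and 219 CPM in ΔDMR1-U2, against 152, 137, 132 and 155 CPM in wild-type, so that only ΔDMR1-U2 library 2 lay within the wild-type range. Etfb was at 77.0, 77.6, 63.2 and 88.5 CPM in ΔDMR1-U2, against 103, 84.8, 87.3 and 94.8 CPM in wild-type, with overlap through ΔDMR1-U2 library 3. None of the 3 was called (adjusted p = 0.722 for Etfa, 0.163 for Etfb and 0.130 for Etfdh, edgeR), and 53.0% of the exon bases of Etfb also belong to Gm45233 on the same strand.

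Of the 6 peroxisomal genes, 4 had positive log2 fold changes and 0 were called. Eci2, an enoyl-CoA isomerase found in peroxisomes and mitochondria, had 78.4, 95.4, 66.1 and 86.0 CPM in ΔDMR1-U2, against 63.5, 57.6, 51.8 and 64.0 CPM in wild-type. The groups did not overlap, and the log2 fold change of 0.46 (standard error 0.11) missed the threshold in edgeR (adjusted p = 0.0652) and passed it in DESeq2 (adjusted p = 0.00672). In the authors' deposited table the adjusted p of Eci2 is 0.0715. Hsd17b4, the D-bifunctional protein, had 52.8, 83.0, 50.6 and 68.3 CPM in ΔDMR1-U2, against 47.9 to 50.6 CPM in wild-type, a log2 fold change of 0.37 that was 0.22 without library 1B. Ehhadh, the L-bifunctional protein, had 13.7 CPM in ΔDMR1-U2 library 1B and 3.34 to 5.38 CPM in the other 3, against 5.05 to 5.90 CPM in wild-type. Its log2 fold change was 0.28 with library 1B and -0.32 without it. Acox3, an acyl-CoA oxidase, was at 18.1 ± 2.75 CPM against 15.3 ± 0.985 CPM, a log2 fold change of 0.25, or 0.14 without 1B. The thiolase Acaa1a and the reductase Decr2 were lower on average, with log2 fold changes of -0.20 and -0.14. The median of the 6 was 0.26 with all libraries and 0.020 without 1B, whose adipocyte marker level is given above, and the part of those cells in it was not tested.

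Ucp2 and Ucp3, uncoupling protein homologues of the inner membrane that are induced when fatty acids are abundant, were high in the same libraries as Cpt2. Ucp2 was at 43.0, 63.2, 43.4 and 58.1 CPM in ΔDMR1-U2, against 34.7, 38.3, 40.1 and 43.3 CPM in wild-type. Ucp3, the muscle form, was at 45.2, 75.8, 52.9 and 60.6 CPM in ΔDMR1-U2, against 48.3, 41.7, 41.5 and 49.6 CPM in wild-type. Each overlapped through ΔDMR1-U2 library 1A, and the log2 fold changes were 0.41 and 0.37, or 0.30 and 0.23 without library 1B (adjusted p = 0.119 and 0.163 with all libraries, edgeR). Ucp2 is also abundant in immune cells, and the 9 macrophage markers summed to 320 to 358 CPM in ΔDMR1-U2, against 342 to 445 CPM in wild-type. Wild-type library 3 held the 445 CPM, and wild-type libraries 1A, 1B and 2 held 342 to 357 CPM. The part of immune cells in the Ucp2 levels was not tested.

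**Figure D3:**
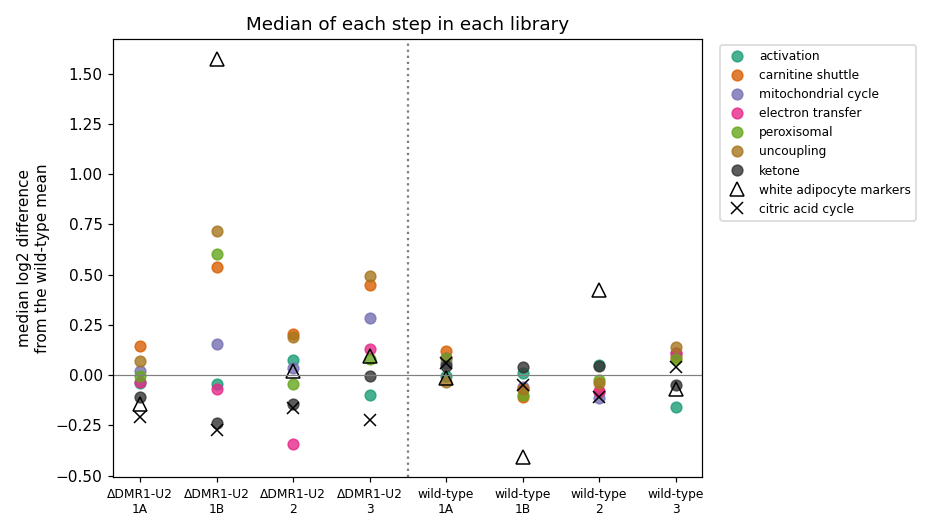
Median over the genes of each step of the log2 difference from the wild-type mean (y axis, on log2 of CPM + 0.5) in each library (x axis), with white adipocyte markers and citric acid cycle enzymes for comparison. In ΔDMR1-U2 libraries 1B and 3 the carnitine shuttle stood at 0.54 and 0.45 and the uncoupling genes at 0.72 and 0.49, while the adipocyte markers stood at 1.57 in 1B and 0.10 in 3.

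The shuttle was highest in libraries 1B and 3. The summed adipocyte markers were above the wild-type maximum of 265 CPM in ΔDMR1-U2 libraries 1A, 1B and 3, at 281, 647 and 293 CPM. Fabp4 alone made up 222, 436 and 221 CPM of these sums. Without 1B, Adipoq, Plin1, Cidec, Retn and Cfd had log2 fold changes between -0.33 and -0.15. Those of Fabp4, Aqp7 and Pparg were then 0.39, 0.79 and 0.14. The part of the adipocyte markers in these results was not tested. The carnitine shuttle median was 0.54 and 0.45 above the wild-type mean in ΔDMR1-U2 libraries 1B and 3, 0.15 and 0.20 in 1A and 2, and between -0.11 and 0.12 in wild-type. Over all 39 genes the medians were 0.19 and 0.28 in 1B and 3, and 0.03 and 0.04 in 1A and 2, inside the wild-type range of -0.07 to 0.10. Without both 1A and 1B the shuttle median log2 fold change was 0.38, that of the mitochondrial cycle 0.16 and that of the peroxisomal genes 0.020. The shuttle median was 0.31 without 1B alone, 0.46 without 1A alone and 0.31 without ΔDMR1-U2 library 3 alone. The 8 brown adipocyte markers summed to 93.4 to 101 CPM in ΔDMR1-U2, against 70.0 to 82.2 CPM in wild-type, while Ucp1, which defines that cell, stood at 0 to 0.11 CPM in every library. The largest part was Ebf2, at 57.5 ± 6.64 CPM against 52.5 ± 3.29 CPM. Of the 6 tested, 5 had positive log2 fold changes, Elovl3 had -0.25, and edgeR called only Cidea, at 22.0 ± 6.79 CPM against 10.5 ± 0.541 CPM. The 6 Schwann cell markers summed to 165 to 252 CPM in ΔDMR1-U2, the highest in library 3, and to 97.4 to 165 CPM in wild-type, and their part in these results was not tested.

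Of the 3 ketone genes, Oxct1 was the 1 called. Oxct1 had 98.1, 90.2, 121 and 72.8 CPM in ΔDMR1-U2 libraries 1A, 1B, 2 and 3, against 153, 147, 153 and 140 CPM in wild-type. All 4 ΔDMR1-U2 libraries were below all wild-type libraries, and library 3, high in the shuttle, was the lowest here. The fall was -0.64 ± 0.12 (SE) on the log2 scale (edgeR adjusted p = 0.0441), the largest in size of the 39, and the authors' deposited table gives an adjusted p of 0.000163. It stayed between -0.77 and -0.52 when any 1 library was left out, -0.61 without 1B, but was called in only 1 of those 8 fits, without ΔDMR1-U2 library 2. BC037032, on the opposite strand, covers 12.6% of its exon bases. Of the 12 skeletal muscle markers, 2 were called lower by edgeR and 4 by DESeq2. Over all genes, 0.617% were called lower by edgeR and 6.15% in either direction by DESeq2. Their median log2 fold change was -0.17, and their part in the fall of Oxct1 was not tested.

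Acat1, the mitochondrial acetoacetyl-CoA thiolase that completes ketone use and also serves isoleucine breakdown, was at 228, 209, 223 and 245 CPM in ΔDMR1-U2, against 265, 253, 230 and 237 CPM in wild-type. The groups overlapped, with a log2 fold change of -0.12 (adjusted p = 0.340, edgeR). Bdh1, the hydroxybutyrate dehydrogenase, was the lowest of the 39 per length, with 18 to 23 counts in each ΔDMR1-U2 library, against 8 to 34 in each wild-type one, too few to show a moderate difference.

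Mlycd lies at chr8:119394878-119411102 and Oxct1 at chr15:4026383-4155344 in mm10, both on the plus strand and both protein-coding. The 150 bases before the first annotated start of each, at chr8:119394728-119394877 and chr15:4026233-4026382, are shown because these are the 2 genes called, in opposite directions. Capitals mark CCAAT, the box bound by NF-Y, the GC box GGGCGG, or AGGTCA, the core recognised by nuclear receptors, on either strand.

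Mlycd: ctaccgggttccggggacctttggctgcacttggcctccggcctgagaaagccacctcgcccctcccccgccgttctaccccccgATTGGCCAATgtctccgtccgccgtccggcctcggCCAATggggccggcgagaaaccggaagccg

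Oxct1: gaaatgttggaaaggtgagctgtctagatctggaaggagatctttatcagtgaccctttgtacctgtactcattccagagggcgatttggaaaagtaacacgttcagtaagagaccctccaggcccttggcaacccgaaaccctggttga

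The Mlycd stretch holds 3 CCAAT matches, 2 of them adjacent on opposite strands, and the Oxct1 stretch holds none of the 3 motifs. Promoter windows, from 250 bases before to 50 after a RefSeq start, were matched for 32 of the 39 genes. Of these, 14 held CCAAT, 24 the GC box, 6 AGGTCA and 0 TATAAA, where 37.4%, 35.7%, 16.3% and 13.6% of all windows did. A gene was counted if any of its windows matched, while the shares are per window. The units therefore differ, and no difference from these shares was tested. The direct repeat of AGGNCA spaced by 1 base, the arrangement that PPAR receptors bind and which contains AGGTCA in some forms, was in 0 of the 32 and in 0.381% of all windows. A match is a string of letters and not a measured site.

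Further genes of the same pathways were examined beside the 39. Slc16a6, known from zebrafish liver as an exporter of ketone bodies, fell, to 6.85 ± 0.715 CPM in ΔDMR1-U2 against 9.91 ± 0.428 CPM in wild-type (log2 fold change -0.53, adjusted p = 0.0426, edgeR). Leaving out ΔDMR1-U2 library 1B or 3, or any 1 wild-type library, ended the call. In the authors' deposited table the adjusted p of Slc16a6 is 0.153.

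Across the 20 further peroxisomal genes, with a median log2 fold change of 0.06, edgeR called none. The most abundant were Ech1, a dienoyl-CoA isomerase that DESeq2 called higher, at 131 ± 20 CPM in ΔDMR1-U2, against 95.3 ± 9.22 CPM in wild-type, and Cat, catalase, at 115 ± 34.5 CPM against 94.0 ± 5.76 CPM. The log2 fold change of Cat was 0.29 with library 1B and 0.06 without it. Among 19 further mitochondrial genes, with a median of 0.04, edgeR called none. DESeq2 called 2, Acadsb and Acss1, where it called 6.15% of all genes. Acadsb, a short branched-chain dehydrogenase, was at 70.7 ± 15 CPM against 53.6 ± 2.87 CPM, a log2 fold change of 0.40 that was 0.25 without library 1B. Hibadh, of valine breakdown, was at 51.3 ± 6.76 CPM against 51.2 ± 0.711 CPM. Among 17 genes of uptake, binding and control, with a median of 0.04, neither edgeR nor DESeq2 called any. Acacb, which makes the malonyl-CoA that Mlycd removes, was at 160 ± 53.2 CPM against 121 ± 23.6 CPM, with 225 CPM in library 1B. Its log2 fold change was 0.40, or 0.18 without that library. Prkaa2, a catalytic subunit of AMP-activated kinase, was at 136 ± 23.0 CPM against 138 ± 5.29 CPM.

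Levels per transcript length put the mitochondrial steps on top in both groups. Acaa2 had the highest wild-type level, at 133 ± 12.4 CPM per kilobase in ΔDMR1-U2 and 123 ± 10.4 in wild-type, and Acadl the next, at 132 ± 10.5 and 118 ± 3.84, a gap within the SD of Acaa2 in either group. Etfb, Acadvl, Hadha and Acadm came after these, between 81.6 and 106 CPM per kilobase in ΔDMR1-U2 and between 84.9 and 103.5 in wild-type. Peroxisomal genes were spread from Eci2, at 46.7 ± 7.09 and 33.9 ± 3.31, to Ehhadh, at 2.27 ± 1.58 and 1.88 ± 0.127. Of the activating synthetases Acsl1 led, at 79.2 ± 13.0 and 69.0 ± 4.03, with Acsl3 at 24.6 ± 1.86 and 26.0 ± 2.22. Oxct1 stood at 27.1 ± 5.69 CPM per kilobase in ΔDMR1-U2 and 42.1 ± 1.72 in wild-type.

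**Figure D4:**
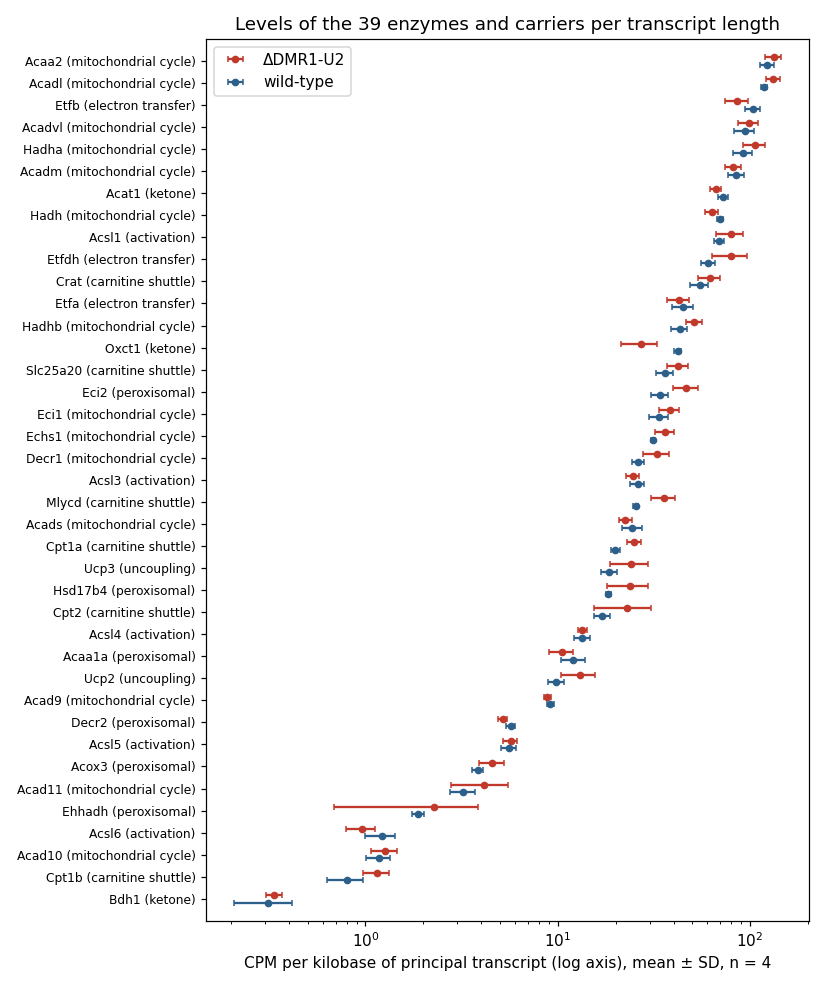
Level in CPM per kilobase of the principal transcript (x axis, log scale, mean ± SD of 4 libraries) for the 39 genes (y axis, ordered by wild-type level), with ΔDMR1-U2 above wild-type in each row. Acaa2 and Acadl lie at the top, above 115 in both groups, and Bdh1 at the bottom, near 0.3.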

How the data were processed

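Per the file headers, 1 table gave a raw read count per gene for 8 samples, deposited without normalization. It also gave the authors' mean normalised counts per group (a signal divided by size factors), fold changes as a ratio of wild-type over ΔDMR1-U2, their log2, and p-values. Per the labels' protocols, total RNA was sequenced as read pairs after removal of ribosomal RNA. The submitters' processing notes name the mm10 build and, with no order, DESeq2 1.4.5, HTSeq 0.5.4p3, TopHat2 2.0.9 and Bowtie2 2.1.0. The sources used here do not give the strand setting or annotation behind the counts.

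Counts were tested across all genes with edgeR 4.0.16 in R 4.3.3 (quasi-likelihood test, TMM scaling, filterByExpr at a minimum count of 10, Benjamini-Hochberg adjustment over 15241 genes). The biological coefficient of variation was 12.3%. DESeq2 1.42.0 served as an alternative. The procedure was tested on simulated data. Standard errors come from the fitted test. Pairs of libraries within a group differed by 11.1 to 24.5 times sampling noise (chi-square per degree of freedom). Positions and lengths are from GENCODE vM21, length being that of the longest principal transcript.

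The 39 genes, their steps and all other lists were chosen with earlier results of these data known. All 39 are named. Of each other pathway list the called genes are named, or the 2 most abundant where none was called, except for results that are not reported here, and further genes were chosen after their values were seen.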

Additional observations from a re-analysis of the deposited data

Results flagged for a closer look

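In 78 sets of 4 libraries (39 genes in 2 groups), a library was sought whose gap to the nearest of the other 3 took up most of the set's whole range (Dixon's 95% limit), which chance gives in about 1 in 20 sets. There were 3 such sets, all in wild-type. Acad10 was at 3.56 CPM in wild-type library 1B, Acad11 at 13.5 CPM in wild-type library 3, and Echs1 at 46.6 CPM in wild-type library 2.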

How the results depend on the processing

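The count of 2 called genes was the same with RLE or upper-quartile scaling and with no filter on low counts. It was 4 in DESeq2, 0 to 4 when 1 library was left out, and 0 without both ΔDMR1-U2 libraries 1A and 1B. Calls over all genes varied too, from 7 when either library 3 of ΔDMR1-U2 or 1A of wild-type was dropped, to 631 without library 2 of ΔDMR1-U2, against 172 with all libraries. The library names 1A, 1B, 2 and 3 recur in both groups, but same-named libraries did not deviate together (correlations of -0.22 to -0.08). With the name as a replicate block the count was 0, of 13 genes called in all.

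The median of the peroxisomal genes was between 0.020 and 0.39 in fits without 1 library and was 0.020 without 1A and 1B. Other step medians moved by less than the spread between libraries. Log2 fold changes near 0 changed sign. In fits without 1 library they spanned -0.050 to 0.069 for Acsl4, -0.030 to 0.073 for Acsl5, -0.0047 to 0.14 for Acadvl, -0.15 to 0.0033 for Etfa, -0.10 to 0.23 for Bdh1 and -0.32 to 0.49 for Ehhadh. Without both 1A and 1B, Acsl4 was at -0.016, Acadm at 0.024, Ehhadh at -0.35 and Bdh1 at -0.0076, and with no filter Acsl4 was at -0.00021. Counts of 8 to 34 for Bdh1 and 41 to 75 for Cpt1b limit their precision.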

Other observations

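The citric acid cycle, which takes up the acetyl-CoA that fatty acids and ketone bodies yield, showed the opposite sign to most of the fatty acid genes. Of 17 tested enzymes 16 had negative log2 fold changes, with a median of -0.24 and a range of -0.25 to -0.19 when 1 library was left out. Idh3a, the catalytic subunit of the NAD-dependent isocitrate dehydrogenase, was the 1 gene called by edgeR, at 198, 173, 184 and 169 CPM in ΔDMR1-U2 and 245, 227, 261 and 243 CPM in wild-type (log2 fold change -0.43, adjusted p = 0.0301, edgeR). Leaving out ΔDMR1-U2 library 3 or any 1 wild-type library ended the call. DESeq2 called 7 of the 17 lower, which were Idh3a, Cs, Dlst, Suclg1, Sdha, Fh1 and Mdh2. Before adjustment 11 were lower at p under 0.05 (edgeR), against 10.9% of all genes. For 7 the ΔDMR1-U2 libraries lay wholly below wild-type, against 6.38% of all genes. Over all genes, edgeR called 0.617% lower and DESeq2 called 6.15% in either direction. The difference between the 2 lists was not tested. The 12 skeletal muscle markers also had negative values, with a median of -0.17.

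Cidea, a lipid droplet protein of brown fat, rose to 22.0 ± 6.79 CPM in ΔDMR1-U2 against 10.5 ± 0.541 CPM in wild-type (log2 fold change 1.07, adjusted p = 0.0301, edgeR), with a log2 fold change of 0.86 without library 1B (adjusted p = 0.0214, edgeR). Its call, too, was lost without library 3 of ΔDMR1-U2 or any 1 wild-type library. Slc27a1, a fatty acid transport protein chosen after its values were seen, was at 42.5, 127, 42.2 and 84.8 CPM in ΔDMR1-U2, against 36.2, 26.8, 32.1 and 52.3 CPM in wild-type, and was not called (adjusted p = 0.134, edgeR). Its log2 fold change was 1.01, or 0.62 without library 1B.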
